A study of Mus musculus with 6 samples.

Results

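The SMN complex is the assembly machine of the spliceosome's small nuclear ribonucleoproteins (snRNPs). Its genes were taken from a deposited table of splicing scores by gene symbol: Smn1, Gemin4, Gemin5, Gemin6, Gemin7, Ddx20 and Strap. All 7 were present among the 15705 genes with a score. Both groups were cortical neurons from C57BL/6 mouse embryos at embryonic day 18, kept for 7 days in culture before a lentivirus was added for 3 days. The N40K group (3 libraries) received FCK1.3GW-N40K, with a short CaMKII promoter in front of N40K, an N-terminal piece of U1-70K (the product of Snrnp70). The control group (3 libraries) received the vector FCK1.3GW, in which the same promoter stands in front of EGFP. The WPRE element and the long terminal repeats were in both constructs. A CaMKII promoter is active mainly in excitatory neurons, and the share of cells reached by the virus is not given in the sources used here. The series asks what disturbance of the U1 snRNP, as seen in Alzheimer's disease, does to neurons.

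Each U snRNA of the major spliceosome, other than U6, carries a ring of Sm proteins. In the cytoplasm the SMN complex binds the snRNA and closes this ring around it. The snRNA's cap is then hypermethylated, and the particle is imported into the nucleus and matures in Cajal bodies. U1, whose protein U1-70K is the source of N40K, is built by this route. Loss of human SMN1 causes spinal muscular atrophy, a disease of motor neurons.

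The measurement is the Sd score, taken here to mean splicing deficiency, with 1 value per gene and library. In this field such a score sets unspliced against spliced RNA of a gene, so a higher score would stand for less complete splicing. Its formula is not given in the sources used here, and the number of reads behind a score is unknown. The score gives no expression level, so the neuronal label could not be checked against marker genes, and the amount of SMN complex RNA or protein was not measured. In these bulk cultures a different mix of cells and a change within each cell cannot be told apart. Whether replicates came from separate cultures is not stated, so the p-values reflect only how far these libraries differ, which may be technical. Across genes, library medians were 0.0146, 0.0153 and 0.0163 with N40K, against 0.0136, 0.0127 and 0.0133 in control. The score of Snrnp70 was 0.0233 ± 0.000902 with N40K and 0.0216 ± 0.000656 in control (SD, n = 3 each). It did not pass the test (limma, Benjamini-Hochberg adjusted p = 0.376). All N40K scores of Snrnp70 lay above all its control scores, by 0.0224 against 0.0223 at the closest, as for 33.6% of all genes. Whether reads of the N40K insert were counted for Snrnp70 is not given in the sources used here. Their part in its score was not tested. The sign of the Snrnp70 change turned after centring on library medians, after quantile normalization and in the centred fit without a pseudocount.

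The members that passed the test have very different gene structures. By the GENCODE M21 annotation, matched by Ensembl identifier, Gemin4 has 2 exons and 1 intron of 3554 bases, while Gemin5 has 28 exons and 27 introns with 42325 intronic bases in all. Both lie on chromosome 11. Their exon junctions are shown because the U1 snRNA pairs with the last bases of an exon and the first bases of the intron after it. Each line holds the 15 bases before and the 15 bases after a junction in the spliced transcript, with the last 2 exon bases, part of the stretch that U1 pairs with, in capitals. The Gemin4 line is that gene's one junction, and for Gemin5 the junctions of its introns 1, 2 and 3 are given.
Gemin4 intron 1: ccgccatggacctAGgacccttgaatatct
Gemin5 intron 1: cgcccccgtttcgAGtggtaggagagttgg
Gemin5 intron 2: cacacactccatcAGcatacaatatcagca
Gemin5 intron 3: tctagtagccattGGctacaaagatggcat
The Gemin4 exon ends in AG. Of the 27 Gemin5 exons before an intron, 13 (48.1%) end in AG. Over the 7 members it was 30 of 59 (50.8%), and over all genes with a matched annotation 88487 of 157589 (56.2%). The intron bases of these sites were not analysed here.

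N40K neurons had a lower Sd score for Gemin4 and a higher one for Gemin5, and the other 5 members did not pass the test. Thus 1 of 7 members rose, where 21.5% of all genes rose, and 1 of 7 fell, where 4.11% of all genes fell. These shares rest on 1 gene each and say nothing particular about the complex. They also depend on scaling: with libraries centred on their medians, 1531 genes rose and 2883 fell, and 1 member rose and 3 fell. The members' median change was -0.06 on the log2(score + 0.01) scale, beside 0.06 over all genes. The changes ran from -0.78 in Gemin4 to 0.44 in Gemin6, which did not pass. By the ratio of mean scores Gemin5 stood highest, at 1.66, against 1.49 for Gemin6, since the pseudocount compresses low scores.

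**Figure D1:**
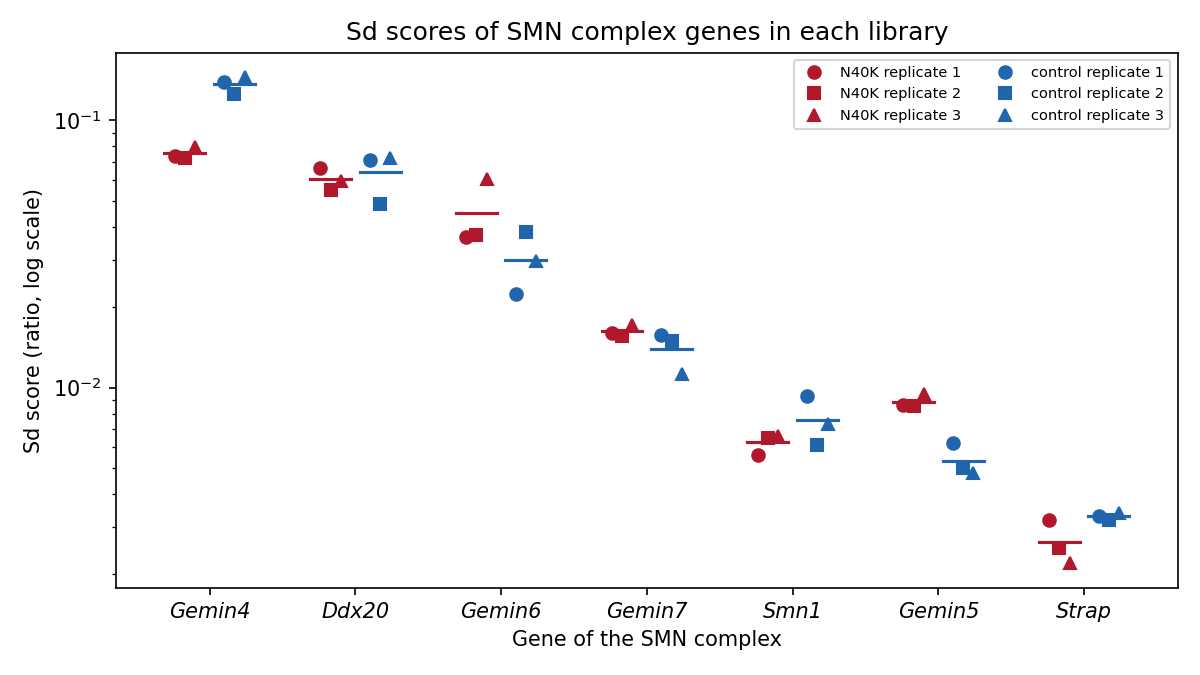
Sd scores on a log scale of the 7 SMN complex genes in each library, N40K in red and control in blue, with a symbol for each replicate and a bar at each group's mean. The 3 N40K scores lie below the 3 control scores for Gemin4 and above them for Gemin5, and the groups overlap or touch for the other 5 genes.

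Smn1 encodes SMN, the scaffold of the complex, whose Tudor domain binds methylated arginines of Sm proteins. Its scores were 0.0056, 0.0065 and 0.0066 with N40K, against 0.0093, 0.0061 and 0.0073 in control. The groups overlapped, because control 2 lay below N40K 2 and 3, and control 1 was the highest. The means were 0.00623 ± 0.000551 with N40K and 0.00757 ± 0.00162 in control (SD, n = 3 each). The log2 change was -0.11, with a 95% interval from -0.29 to 0.066 (limma adjusted p = 0.321), and -0.04 without control 1. The result depended on scaling: with libraries centred on their medians the change in Smn1 was -0.24 and passed (limma adjusted p = 0.0278), and after quantile normalization it was -0.22 and passed (0.0390). It did not pass when libraries were centred on the median deviation of their genes (0.0890), nor in that centring with no pseudocount (0.0937). Smn1 scores lie below the pseudocount of 0.01. With neither a pseudocount nor centring the log2 change of Smn1 was -0.26 (limma adjusted p = 0.334).

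Gemin5 is the subunit that recognises the snRNA, through WD repeats that bind its Sm site. Its scores were 0.0086, 0.0085 and 0.0095 with N40K, against 0.0062, 0.0050 and 0.0048 in control. All N40K libraries lay above all control libraries, as they did for 33.6% of all genes. The mean with N40K, 0.00887 ± 0.000551, was 1.66 times the control mean of 0.00533 ± 0.000757 (SD, n = 3 each). The log2 change was 0.30 ± 0.05 (SE), and Gemin5 rose (limma adjusted p = 0.00934). Since these scores are below the pseudocount of 0.01, that scale understates the change, which was 0.74 (log2) without a pseudocount. The call held in all 17 alternatives that differ from this fit, with adjusted p-values of at most 0.0458. Among all genes with 20 or more introns, 788 of 2003 (39.3%) rose and 22 (1.1%) fell. Gemin5 shares a stretch with Gm12246 on the other strand, whose score was 5.02 with N40K and 7.26 in control (adjusted p = 0.151); whether the authors counted by strand is not given in the sources used here, and its part in the result was not tested.

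Ddx20 encodes Gemin3, a DEAD-box RNA helicase that anchors Gemin4 in the complex. Its scores were 0.0663, 0.0548 and 0.0595 with N40K, against 0.0709, 0.0485 and 0.0724 in control. The 3 N40K scores lay inside the control range. The log2 change was -0.06, with a 95% interval from -0.44 to 0.32 (limma adjusted p = 0.823). Its direction turned without control 1 and without control 3.

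Gemin4 is the partner of the Ddx20 helicase. Its scores were 0.0739, 0.0723 and 0.0798 with N40K, against 0.1396, 0.1261 and 0.1451 in control. All N40K libraries lay below all control libraries, as for 8.67% of all genes, and the spread within each group was small beside the gap. The mean with N40K, 0.0753 ± 0.00395, was 0.55 times the control mean of 0.137 ± 0.00978 (SD, n = 3 each). Gemin4 fell by 0.78 on the log2(score + 0.01) scale (SE 0.08, limma adjusted p = 0.00387). The fall held in all 17 alternatives, with log2 changes from -0.91 to -0.74 at this pseudocount and adjusted p-values of at most 0.0279. Among genes with 1 intron, 61 of 951 (6.41%) fell and 113 (11.9%) rose.

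The Gemin4 locus is shared with other genes. Glod4 overlaps it on the same strand, and its annotated transcripts include one that matches 94.7% of the Gemin4 transcript. Fam57a and Dbil5 overlap it on the other strand. A Fam57a transcript matches 81.4% of the Gemin4 transcript, in the opposite orientation. Whether reads were counted by strand is not given in the sources used here. The score of Glod4 was 0.00883 with N40K and 0.00823 in control and did not pass (limma adjusted p = 0.435). Fam57a, named after its value was seen, rose to 0.0316 with N40K, against 0.0211 in control (0.0356). Dbil5, a gene with scores above 1 in both groups, had 1.04 with N40K and 1.31 in control and did not pass (0.371). Transcripts of Gm6330 are 97.6% identical to 40.6% of the Gemin4 transcript and 97.7% identical to 35.4% of it, and Gm6330 had no score. How the authors divided reads among these genes is not given in the sources used here, and the part of shared reads in the Gemin4 fall was not tested.

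Gemin6 and Gemin7 form a pair with the fold of Sm proteins. Gemin6 had scores of 0.0367, 0.0374 and 0.0605 with N40K, against 0.0225, 0.0383 and 0.0297 in control. Its groups overlapped, because control 2 was higher than N40K 1 and 2. N40K 3 was the highest of the 6. Gemin6 had the widest relative spread of the members, with an SD of 30.2% of the mean with N40K and 26.2% in control, where the median gene had 12.2% with N40K and 10% in control. Its log2 change of 0.44 had a 95% interval from -0.095 to 0.98 and did not pass (limma adjusted p = 0.199), and the change of Gemin6 was 0.25 without N40K 3. The copy Gemin6-ps is 97.4% identical to 44.2% of the Gemin6 transcript and Gm3678 is 95.8% identical to 43.7% of it. Reads may be shared with these copies, neither of which had a score. The part of such reads in the Gemin6 scores was not tested.

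Gemin7 had scores of 0.0160, 0.0156 and 0.0171 with N40K, against 0.0158, 0.0149 and 0.0112 in control. Control 1 lay between N40K 1 and 2, and control 3 was the lowest, so the groups overlapped. The log2 change was 0.14, with a 95% interval from -0.079 to 0.35 (limma adjusted p = 0.316), and 0.05 without control 3. Its direction turned after quantile normalization, where the Gemin7 change was -0.0029. Gemin7 shares a stretch with Zfp296 on the other strand, which had no score, and its part in the result was not tested.

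Strap encodes a WD-repeat protein, also called Unrip, that binds Gemin7. Its scores were 0.0032, 0.0025 and 0.0022 with N40K, against 0.0033, 0.0032 and 0.0034 in control. Control libraries were nearly equal and N40K 1 matched control 2, while N40K 2 and 3 were lower. The mean ratio was 0.798, and the log2 change of -0.07 had a 95% interval from -0.15 to 0.0015 (limma adjusted p = 0.136). With 4 decimals these scores have few steps. Gm12570 is 87% identical to 38.3% of the Strap transcript. Strap passed as a fall without N40K 1 (0.0147), with libraries centred on their medians (0.0343) and after quantile normalization (0.0378). It did not pass when libraries were centred on the median deviation (0.0590), nor in that centring with no pseudocount (0.0859). Strap scores lie below the pseudocount of 0.01. With neither a pseudocount nor centring the log2 change of Strap was -0.34 (limma adjusted p = 0.159).

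**Figure D2:**
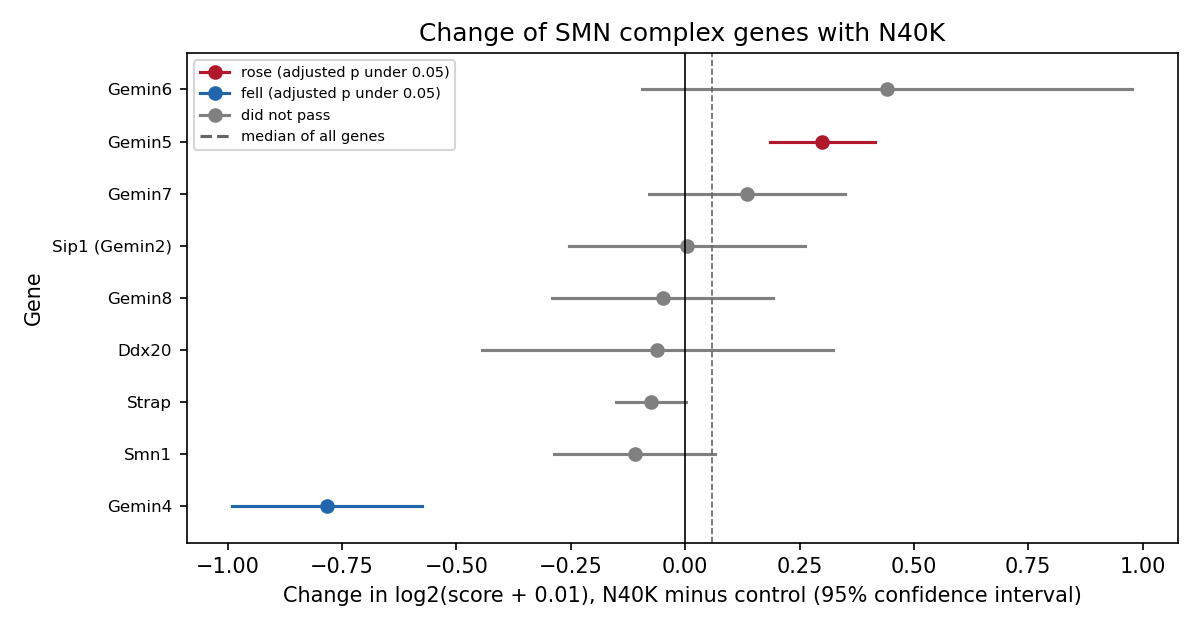
Change in log2(score + 0.01), N40K minus control, of the 7 members and of Sip1 (Gemin2) and Gemin8, with 95% confidence intervals from limma. Gemin5 (0.30) lies above 0 and Gemin4 (-0.78) below it, both past the threshold; the intervals of the other 7 genes include 0, and the dashed line marks the median of all genes at 0.06.

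The complex has further subunits outside the 7 members. Sip1, the table's name for Gemin2, encodes the subunit that holds the Sm proteins before the ring closes. Its scores were 0.0158, 0.0155 and 0.0195 with N40K, against 0.0204, 0.0149 and 0.0154 in control. Gemin8, which joins the Gemin6 and Gemin7 pair to SMN, had 0.0248, 0.0196 and 0.0243 with N40K, against 0.0220, 0.0228 and 0.0273 in control. Both pairs of groups overlapped. The log2 changes were 0.0045 for Sip1, with a 95% interval from -0.25 to 0.26, and -0.05 for Gemin8, with an interval from -0.29 to 0.19. Neither passed (limma adjusted p = 0.985 and 0.768), and the sign of Sip1 turned under each of the scalings tried. The sign of Gemin8 turned without N40K 2 and without control 3.

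The members' scores spanned a wide range of levels. Such levels are scores set within a gene, whose dependence on gene and intron length is unknown, so their order is a description of the scores and not of splicing between genes. With N40K the order of mean scores was Gemin4, Ddx20, Gemin6, Gemin7, Gemin5, Smn1 and Strap, and the ranges of Ddx20 and Gemin6 overlapped. In control it was Gemin4, Ddx20, Gemin6, Gemin7, Smn1, Gemin5 and Strap, and the ranges of Smn1 and Gemin5 overlapped. Other neighbours in these orders had ranges that did not overlap. Gemin4 stood above 84% of all genes by mean score over the 6 libraries, Gemin7 above 50.5% and Strap above 14.5%.

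The genes with profiles nearest to Smn1 were Pcid2, 2700060E02Rik and Rnaseh2a. Likeness was measured as the Euclidean distance of log2(score + 0.01) over the 6 libraries, which weighs the level as well as the pattern. The distances were 0.104 for Pcid2, 0.115 for 2700060E02Rik and 0.116 for Rnaseh2a. Their mean scores were 0.0063, 0.00637 and 0.00567 with N40K, against 0.0078, 0.0072 and 0.00747 in control, in that order. None of these 3 genes passed the test with scores as deposited (limma adjusted p = 0.117, 0.329 and 0.102). As with Smn1, all 3 passed as falls after centring on library medians (0.0109 for Pcid2, 0.0108 for 2700060E02Rik and 0.00991 for Rnaseh2a) and after quantile normalization. They also passed after centring on the median deviation (0.0245, 0.0405 and 0.0241), where Smn1 did not. Because these genes were picked for likeness to Smn1 over the same libraries, similar results follow from the choice. Of all 15705 genes, 2883 fell after centring on library medians, 1883 after quantile normalization and 1518 after centring on the median deviation.

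Genes listed for steps before and after ring assembly, and for its Sm proteins, were compared through 5 further lists. Together with Sip1 and Gemin8 they held 33 genes, all with a score. Of these, 5 rose, 2 fell and 26 did not pass, and the median log2 change was 0.05, close to that of all genes. Over all genes 21.5% rose and 4.11% fell, and the counts of 0 to 2 genes given for each step below are too small to be set apart from these shares. After centring on library medians 2 of the 33 rose and 7 fell.

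**Figure D3:**
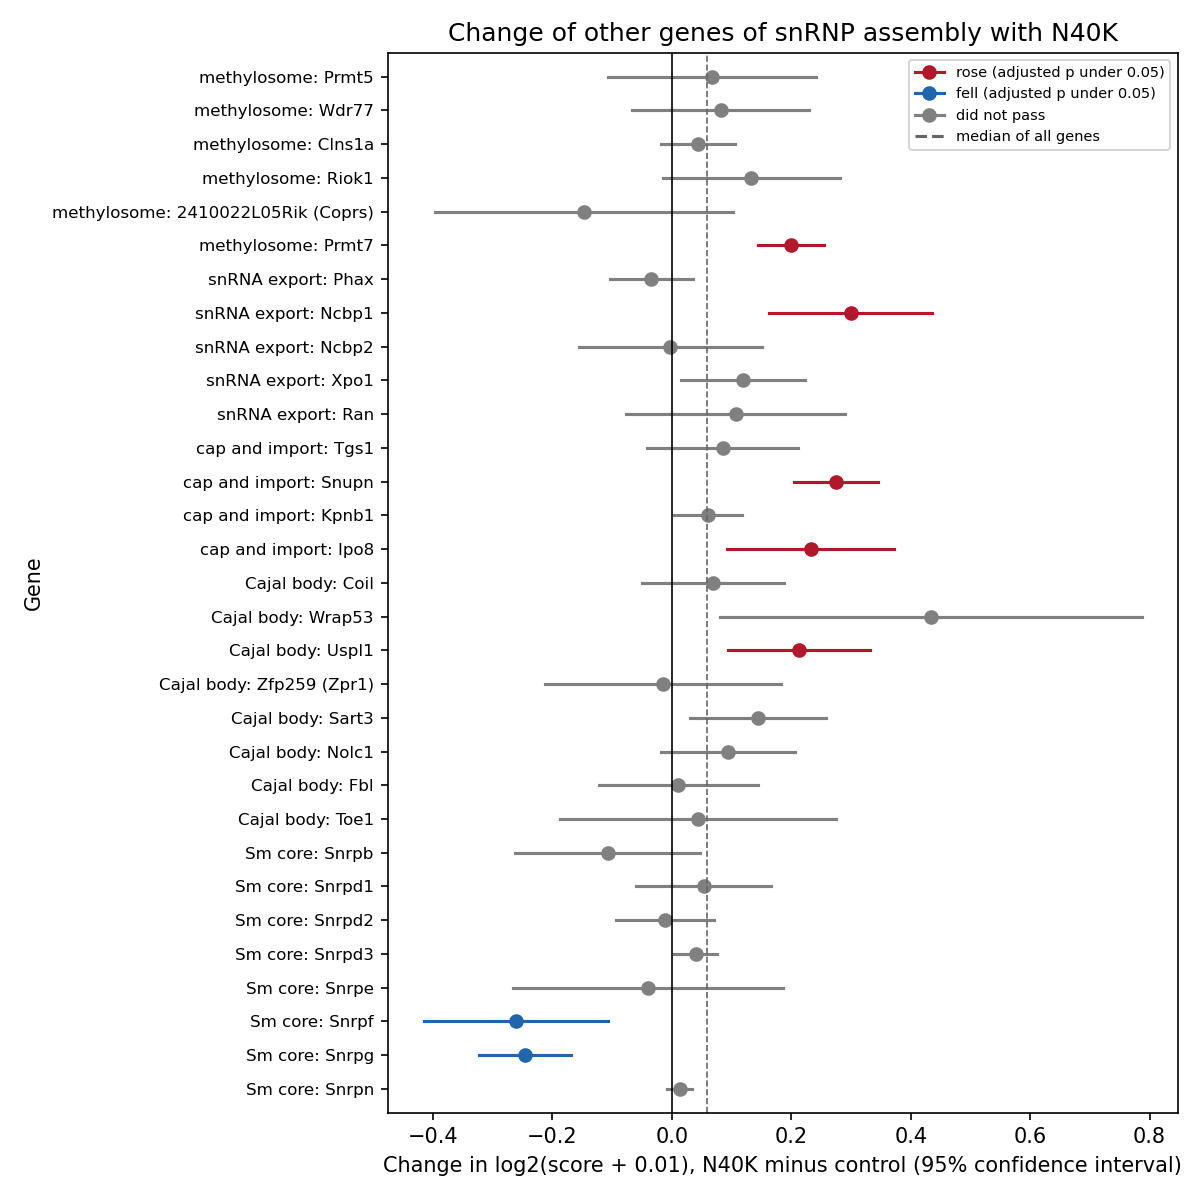
Change in log2(score + 0.01), N40K minus control, with 95% confidence intervals, of 31 genes that act with the SMN complex, ordered by step. Prmt7, Ncbp1, Snupn, Ipo8 and Uspl1 rose, and Snrpf and Snrpg fell; the dashed line marks the median of all genes at 0.06.

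Upstream of the complex, arginine methylation prepares Sm proteins for SMN. Of 6 genes listed for this step 1 rose and 0 fell. The rise was in the methyltransferase gene Prmt7, at 0.0047, 0.0053 and 0.0048 with N40K, against 0.0031, 0.0029 and 0.0030 in control, a ratio of 1.64 (limma adjusted p = 0.00416). The groups did not overlap. The call of Prmt7 ended with libraries centred on their medians (0.174).

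Before assembly the snRNA is exported from the nucleus by its cap. Of 5 genes listed for this step 1 rose and 0 fell. The rise was in Ncbp1, the large subunit of the nuclear cap-binding complex, at 0.0080, 0.0080 and 0.0102 with N40K, against 0.0056, 0.0048 and 0.0052 in control, a ratio of 1.68 (limma adjusted p = 0.0149). N40K 3 stood highest, and the groups did not overlap. The call of Ncbp1 ended without control 2 (0.0578) or control 3 (0.0569).

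After assembly the particle's cap is hypermethylated and the particle is imported. Of 4 genes listed for this step 2 rose and 0 fell. Snupn, which encodes the adapter snurportin that binds the hypermethylated cap, had 0.0069, 0.0062 and 0.0071 with N40K, against 0.0039, 0.0037 and 0.0039 in control. The groups did not overlap, the ratio of means was 1.76 (limma adjusted p = 0.00365), and the call of Snupn held in all 17 alternatives. Ipo8, an import receptor gene, had 0.0050, 0.0064 and 0.0051 with N40K, against 0.0041, 0.0030 and 0.0025 in control (0.0331). The groups did not overlap, but the call of Ipo8 held in 6 of 16 alternatives and ended, among others, after centring on library medians (0.232) and without N40K 2 (0.0827), N40K 3 (0.0666), control 2 (0.101) or control 3 (0.0975).

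In the nucleus the particles mature in Cajal bodies. Of 8 genes listed for this step 1 rose and 0 fell. The rise was in Uspl1, whose product is a SUMO protease of Cajal bodies, at 0.0125, 0.0126 and 0.0136 with N40K, against 0.0105, 0.0091 and 0.0097 in control (limma adjusted p = 0.0264). The groups did not overlap. The call of Uspl1 held in 8 of 17 alternatives and ended, among others, after centring on library medians (0.174), after quantile normalization (0.158) and without N40K 2 (0.0679), N40K 3 (0.0667), control 1 (0.0515), control 2 (0.0862) or control 3 (0.0851).

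The Sm proteins are the cargo that the SMN complex loads. Of 8 Sm core genes 0 rose and 2 fell. Snrpg had 0.0048, 0.0051 and 0.0052 with N40K, against 0.0078, 0.0074 and 0.0083 in control. Its fall, -0.25 on the log2(score + 0.01) scale, passed in all 17 alternatives (limma adjusted p = 0.00533 as deposited). Snrpf, at 0.0122, 0.0133 and 0.0133 with N40K and 0.0178, 0.0158 and 0.0189 in control, had a change of -0.26 on that scale (0.0310). Without a pseudocount the log2 changes were -0.64 for Snrpg, whose scores lie below 0.01, and -0.43 for Snrpf. The ratios of means were 0.643 for Snrpg and 0.739 for Snrpf. The call of Snrpf ended without any one library other than control 2, with adjusted p-values of up to 0.0929.

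**Figure D4:**
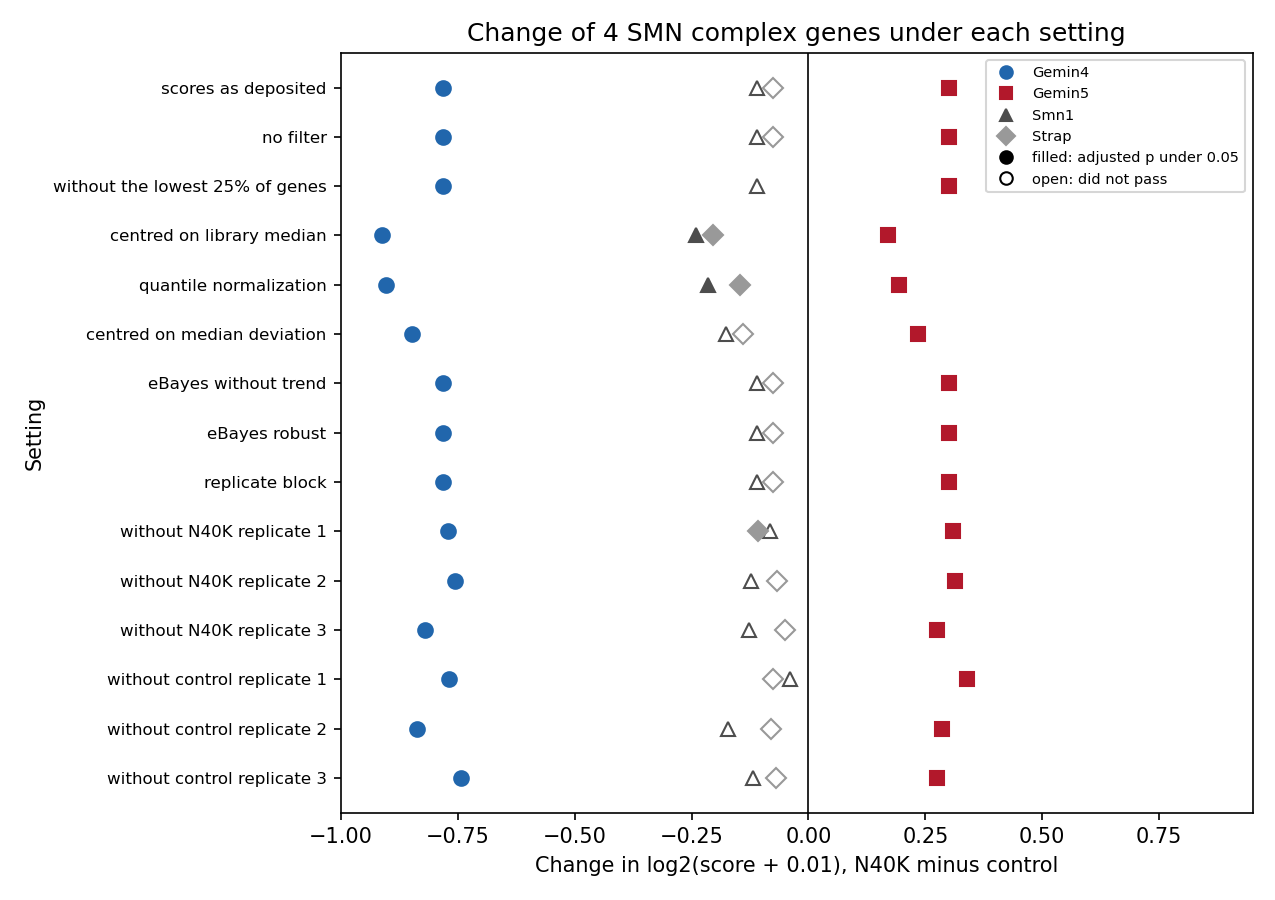
Change in log2(score + 0.01), N40K minus control, of Gemin4, Gemin5, Smn1 and Strap with scores as deposited and under the alternatives that keep the pseudocount, with filled symbols for an adjusted p under 0.05. Gemin4 stays between -0.91 and -0.74 and Gemin5 between 0.17 and 0.34, filled in each row; Smn1 and Strap are filled under centring on library medians and quantile normalization, and Strap also without N40K 1. Strap has no value without the lowest 25% of genes.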

How the data were processed

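RNA was sequenced as 3 N40K and 3 control poly(A) libraries, per the labels' protocols. Per the submitters' processing notes, CASAVA, STAR, BWA, bedtools 2.16.1 and mm9 were used, in roles that are not stated. The table the authors deposited holds the Sd score, treated here as a linear ratio because no value is negative and all have 4 decimals. How the score was computed or scaled, its annotation and read totals were not given in these sources, so depth is unknown. All 6 value columns were matched to libraries by name, with 0 left unused. The test was limma 3.58.1 (R 4.3.3; eBayes with trend, 2-sided) on log2(score + 0.01) of all 15705 genes, with Benjamini-Hochberg adjustment over all of them and a threshold of 0.05. The filter, a score above 0 in at least 3 libraries, removed 0 genes. "Rose" and "fell" refer to scores as deposited that passed.

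The members and lists were chosen with earlier results of these data known. Named genes were all members, Snrnp70, Sip1, Gemin8, list genes that passed, and the 3 genes nearest to Smn1. Sip1, Zfp259 and 2410022L05Rik were matched as Gemin2, Zpr1 and Coprs by Ensembl identifier. Snrpn was matched by the deposited symbol, but the current symbol of its Ensembl identifier is Gm38393. In GENCODE M21 a separate gene named Snrpn overlaps it on the same strand. Gene structures, overlaps and junction sequences came from GENCODE M21 (GRCm38, another build than mm9, so no coordinates are printed), for 14911 genes (94.9%), with 1 transcript a gene. Of these genes 59.2% overlap another gene, including 3 of the 7 members. Copies were sought with BLAST 2.17.0 (at least 85% identity over 200 bases). The alternatives were 17 chosen at the outset and 1 added after seeing the data; one of the former, no filter, is the same fit because the filter removed 0 genes, and is not counted among the 17 that differ.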

Additional observations from a re-analysis of the deposited data

How the results depend on the processing

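The fall of Gemin4 and the rise of Gemin5 kept their direction and their call in the 17 alternatives that differ from the fit as deposited, and 1 member rose in each of them. Using no filter gave the same fit, since the filter removed 0 genes. Depth is unknown, so the precision of low scores such as those of Strap is limited by the last decimal. The stricter filter, without the lowest 25% of genes, left no value for Strap. The cause of the differences below was not tested. The count of members that fell, 1 as deposited, was 3 after centring on library medians and 3 after quantile normalization (with Smn1 and Strap), and 1 to 2 with a library left out (Strap, without N40K 1).

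Over all genes, 3372 rose and 645 fell. Centring on library medians gave 1531 and 2883, quantile normalization gave 2022 rises and 1883 falls, and centring on the median deviation gave 2235 rises and 1518 falls. That centring with no pseudocount, an alternative added after the data were seen, gave 2190 rises and 1202 falls among the 14306 genes it kept. The stricter filter left 11773 genes, of which 1968 rose and 483 fell. With a library left out, 1613 to 3729 genes rose and 303 to 486 fell. Centring on library medians moved the median log2 change of all genes to -0.07, from 0.06 as deposited.

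Of the 33 other genes listed for snRNP assembly, 5 rose and 2 fell as deposited. Centring on library medians gave 2 rises and 7 falls, and quantile normalization 3 and 4. The stricter filter kept only 22 of the 33 and gave 3 rises, with Prmt7 and Ipo8 among the genes left out. The centred fit without a pseudocount kept 31 and gave 3 rises. With a library left out, 2 to 6 rose and 1 to 2 fell.

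The replicate numbers are not stated to mark a shared culture. The deviations of same-numbered libraries from their group means correlated at -0.0712, 0.0376 and -0.0201 over genes for numbers 1, 2 and 3, and N40K 1 and 3 did not correlate best with their own number. With the replicate number as a block, 1770 genes rose and 328 fell, 1 member rose and 1 fell, and 3 other assembly genes rose and 1 fell. The calls of Ipo8 (limma adjusted p = 0.0752), Uspl1 (0.0809) and Snrpf (0.0840) ended in that fit.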
